A study of Ananas comosus with 3 samples.

Results

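Cell wall enzymes, cell wall synthesis genes and structural wall proteins were examined in the flesh of pineapple (Ananas comosus) fruit at 2 ripening stages. Members were taken from a pineapple cDNA array by the names printed with the clones, using 16 keywords such as expansin, pectin, polygalacturonase, xyloglucan, cellulose, galactosidase, mannosidase and glycine-rich. This gave 26 contigs (assembled expressed sequences, each named by its contig number) carried by 36 cDNA elements, out of 7775 genes or unassembled clones and 9278 elements on the array. By their names they fell into 6 roles: 2 expansins, 6 pectin enzymes or their inhibitors, 1 xyloglucan enzyme, 8 glucanases and cellulose genes, 7 glycosidases and 2 structural proteins. The keywords also took in enzymes whose known work lies elsewhere. Endoplasmic reticulum alpha-mannosidase and mannosyl-oligosaccharide 1,2-alpha-mannosidase trim the sugar chains of glycoproteins inside the cell, and plant beta-1,3-glucanases also act in defence and on callose.

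The primary wall of a fruit cell is a network of cellulose microfibrils joined by hemicelluloses such as xyloglucan and embedded in pectin, with glycoproteins woven through it. In many fleshy fruits softening goes with the dismantling of this network: pectinesterases remove methyl groups from pectin, polygalacturonases then cut its backbone, beta-galactosidases trim its side chains, expansins loosen the contacts between polymers, and xyloglucan endotransglycosylases cut and rejoin xyloglucan. Pineapple is a non-climacteric fruit, which ripens without a burst of respiration and ethylene.

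Unripe mature green fruit was compared with ripe mature yellow fruit, both from field-grown Smooth Cayenne plants of Clone C10, and RNA came from the flesh of the middle of the fruit after skin and pith were removed. Each of 3 slides received labelled cDNA of both stages, with mature yellow fruit in Cy3 and mature green fruit in Cy5 on replicates 1 and 3 and the dyes exchanged on replicate 2. The sources do not say which hybridizations were repeats of the same RNA, nor how many fruits stood behind each slide. SDs and p-values thus cover at most the spread between these slides, which may be technical. The p-values from limma also draw on the spread of other features. In whole flesh, fewer cells of a type and less RNA per cell cannot be told apart.

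Every slide carried 18556 element spots, each element in duplicate, and the median spot lay 31.0, 67.0 and 27.9 intensity units above its local background in the yellow fruit channel and 27.0, 116 and 15.8 in the green fruit channel. Values below are log2 ratios of mature yellow over mature green fruit after background correction and within-slide normalization, so that a positive value stands for more signal in mature yellow fruit. Signals are given before normalization, and a ratio of signals differs from the normalized ratio for that reason. Fruit bromelain, the cysteine protease of pineapple flesh, was named for 3 contigs in the slide files, of which contig 3033 was called lower in mature yellow fruit (log2 ratio -3.57 ± 0.37, SD, n = 3 slides, limma's adjusted p = 0.0460) and contigs 123 and 2985 were not called (-0.25 and -0.06). Contig 122, named fruit bromelain only in the list that accompanies the paper, gave -4.69, -5.20 and -3.42 and was not called (adjusted p = 0.121). Metallothionein was present as 2 contigs, and 0 contigs carried a name with chlorophyll a/b, photosystem, xylem or phloem, so that green and vascular tissue could not be read from the array by these names.

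A change was called where the stages differed at least 1.5-fold and limma gave an adjusted p under 0.05, adjusted over all 7773 features with values on at least 2 slides. Of the 26 wall contigs, 0 were called, where 0.129% of all features were (0.0515% higher and 0.0772% lower in mature yellow fruit). At 1.5-fold or more without a test there were 2, polygalacturonase (contig 3193) on the high side and a putative beta-galactosidase (contig 1029) on the low side, where 5.24% of all features passed, 3.18% on the high side and 2.06% on the low side. At an unadjusted p under 0.05 there was 1, contig 3193, against 8.95% of all features. The other contigs lay close to 0. The median log2 ratio over the 26 was 0.02 (0.01 over all features). Of the 26, 19 (73.1%) lay within 0.1 of 0 on the log2 scale, as did 59.2% of all features. The background correction used here pulls ratios of dim spots toward 0. With plain subtraction the median was 0.24 over the 19 contigs that then had a value (0.015 over all features). A single direction on all 3 slides was shown by 7 contigs, where 34.4% of all features showed one. Of the 7, 6 were positive and 1 negative, where 17.9% of all features were positive on every slide and 16.5% negative. The 6 include contig 2767, above background on 0 slides, and contig 2907, above it on 1, where the sign is not a measurement.

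**Figure D1:**
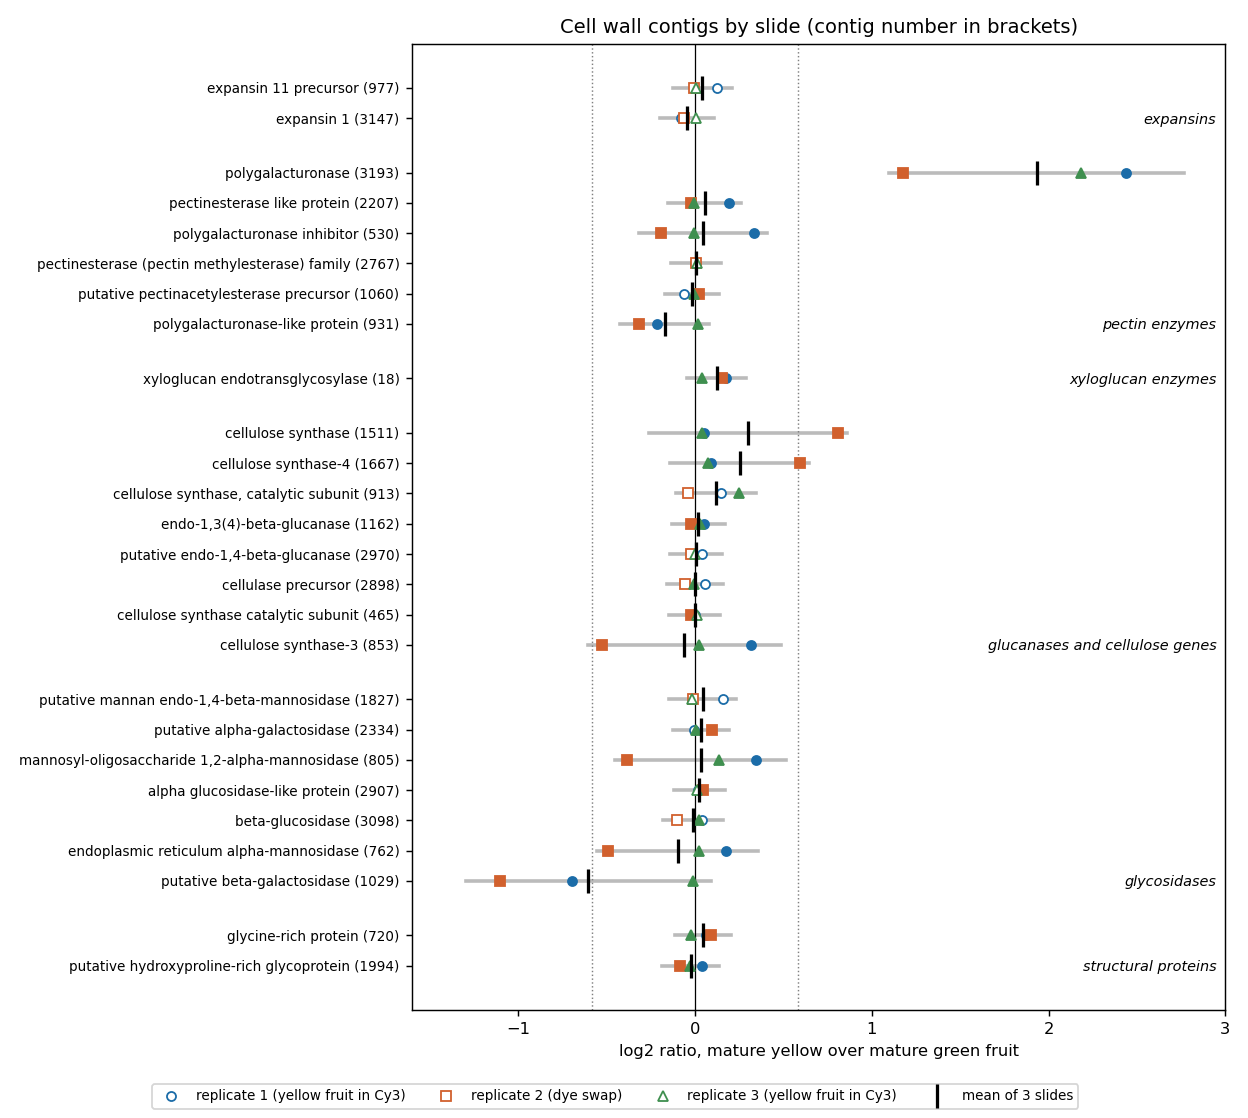
Log2 ratio of mature yellow over mature green fruit (horizontal axis) for each of the 26 wall contigs, grouped by role, with 1 symbol per slide (filled where the contig was above background in at least 1 channel, open where not), a black bar for the mean of the 3 slides, a grey line for limma's 95% interval and dotted lines at 1.5-fold. Polygalacturonase 3193 is the contig whose interval lies wholly away from 0, and 19 of the 26 means lie within 0.1 of it.

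Many of the wall genes gave little signal on these slides. Taking as background the median of the blank spots plus 2 robust SD, 14 of the 26 contigs (53.8%) exceeded it in at least 1 channel on all 3 slides, where 74.2% of all features did. A further 7 exceeded it on 1 or 2 slides and 5 on none. Those 5 were both expansins (contigs 977 and 3147), the pectinesterase family contig 2767, a putative mannan endo-1,4-beta-mannosidase (contig 1827) and a putative endo-1,4-beta-glucanase (contig 2970). For them a log2 ratio near 0 is not a measurement of equal levels. The authors' own test for single spots, called 2xSD, was passed by at least 1 spot of 4 wall contigs and of 36.0% of all features. Those were polygalacturonase 3193 with all 6 of its spots, cellulose synthase-4 (contig 1667) with 10 of 12, the glycine-rich protein (contig 720) with 4 of 6 and cellulose synthase (contig 1511) with 1 of 6.

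**Figure D2:**
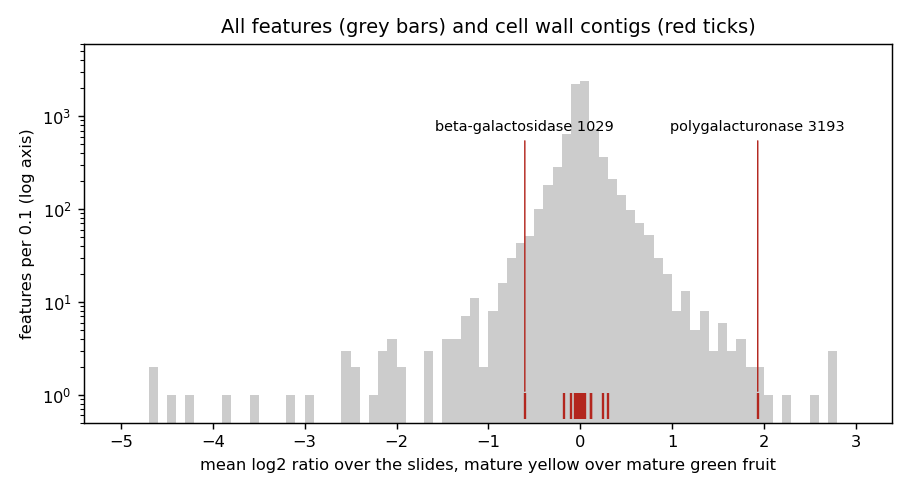
Number of features in each step of 0.1 of the mean log2 ratio of mature yellow over mature green fruit (grey bars, log axis), with the 26 wall contigs as red ticks. Polygalacturonase 3193 at 1.93 lies in the thin upper tail, beta-galactosidase 1029 at -0.60 in the lower tail, and the other wall contigs lie in or beside the central bars.

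Among the pectin enzymes, polygalacturonase contig 3193 stood apart from the rest. This enzyme hydrolyses the polygalacturonic acid backbone of pectin. Its signal in mature yellow fruit was 3611, 2840 and 1349 on replicates 1 to 3, against 563, 2071 and 176 in mature green fruit, and the yellow fruit channel was the brighter on every slide. The log2 ratios were 2.44, 1.18 and 2.18, all positive, and the lowest came from the slide with exchanged dyes. Duplicate spots of a slide gave 2.48 and 2.40, 1.13 and 1.22, and 2.18 and 2.19, so the difference between replicate 2 and the other slides was larger than that between duplicate spots. The mean was 1.93 ± 0.67 (SD, n = 3), a 3.82-fold higher level, with a 95% interval from 1.10 to 2.77. It ranked 7 from the top among all 7773 features and 5 from the top among the 1351 features that passed the 2xSD test on all slides. With an unadjusted p of 0.00359 and an adjusted p of 0.231 from limma, it did not pass the test over all features. The call depended on the processing. With limma fitted only to spots above the blank spots by 2 SD it passed at an adjusted p of 0.0100 (2417 features tested). With spots past the 2xSD test it passed at 0.0123 (2127 features tested). It also passed at 0.0372 with a dye term in the fit (log2 ratio 1.74). That term fits replicate 2, the only slide with exchanged dyes, exactly, so the slide's lower ratio adds nothing to the error. With the authors' processed values contig 3193 passed at 4.28e-09 (log2 ratios 3.50, 1.96 and 2.92, mean 2.79). In that fit of the processed values, limma gave contigs of unlike spread nearly the same error. This p therefore does not measure the spread of contig 3193. The replicate 3 column of those values had a median log2 ratio of 1.03, which was not removed. The methods' t-test gave an unadjusted p of 0.0376, under the limit of the methods. In 15 of 20 alternatives contig 3193 did not pass. Among these, limma's adjusted p was 0.675 after scale normalization and 0.796 with trend and robust variances. Without replicate 1, 2 or 3 the log2 ratio was 1.68, 2.31 and 1.81, and the adjusted p was 0.870, 0.0709 and 0.348. The contig rests on 1 clone, JBW025C04.

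**Figure D3:**
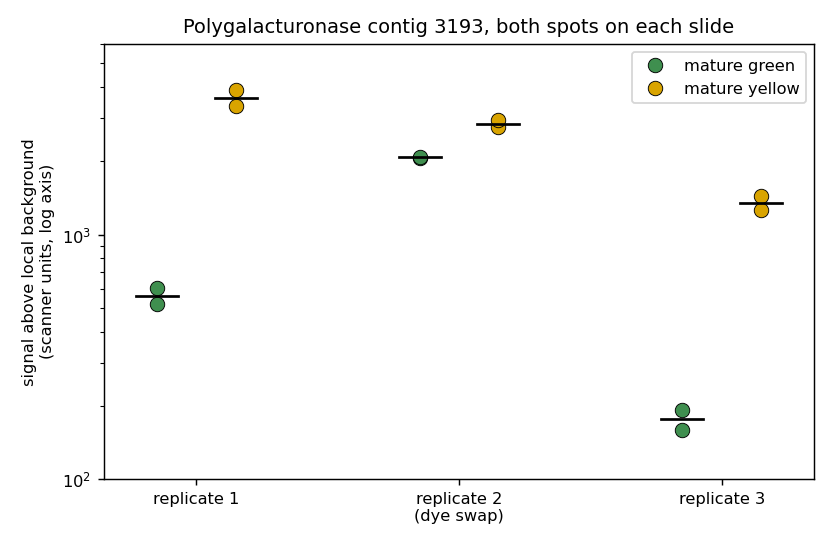
Signal above the local background in scanner units (log axis) of both duplicate spots of polygalacturonase contig 3193 on each slide, in the mature green and the mature yellow fruit channel, with a bar at the mean of the spots. The yellow fruit signal exceeds the green fruit signal on all 3 slides, by the smallest margin on replicate 2 (2840 against 2071).

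The other 5 pectin contigs had mean log2 ratios from -0.17 to 0.05. A polygalacturonase inhibitor (contig 530), of the leucine-rich proteins that bind fungal polygalacturonases, had ratios of 0.34, -0.20 and -0.00 (mean 0.05 ± 0.27, SD, n = 3, adjusted p = 0.946). Its slides disagreed in sign. A second gene named for polygalacturonase, contig 931, was above background on all slides and gave -0.21, -0.32 and 0.01. It did not share the direction of contig 3193. The pectinesterase family contig 2767 gave 0.01 ± 0.00 (SD, n = 3, adjusted p = 0.985), but neither channel was above background on any slide. A pectinesterase-like protein (contig 2207) had a mean of 0.05 and a putative pectin acetylesterase (contig 1060), of the enzymes that remove acetyl groups from pectin, a mean of -0.02.

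Both expansin genes were below background. Expansin 11 (contig 977) had log2 ratios of 0.13, -0.00 and 0.00, with a mean of 0.04 ± 0.07 (SD, n = 3, adjusted p = 0.896), on signals of at most 1 intensity unit above the local background. Expansin 1 (contig 3147) was likewise not above background, so neither gene gave a fold between the stages.

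Xyloglucan endotransglycosylase (contig 18) was the wall contig with the most clones, 6 elements and 35 usable spots. Its log2 ratios were 0.18, 0.15 and 0.04, all positive. The mean was 0.12 ± 0.07 (SD, n = 3) with a 95% interval from -0.05 to 0.29 and an adjusted p of 0.622, so the difference did not pass the test. Its size moved with the background correction, from 0.01 without correction to 0.65 with plain subtraction, and it was 0.90 with the processed values on replicates 1 and 2. The 6 elements did not give one value. Clone JBW051D10 gave 0.62, 0.46 and 0.20 (mean 0.43), clone JBW036B08 gave -0.04, -0.28 and 0.02 (mean -0.10), and the other means lay between these. Of the 6 elements 5 had a positive mean and 3 were positive on every slide. Of these 3, clone JBW098D05 was above background in 2 of 6 spots. Clone JBW048C01, also with a positive mean, was above background in 1 of 6, so the signs of these 2 clones are weakly measured. Clones of a contig share the RNA and the slides and are no replicates of the fruit.

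**Figure D4:**
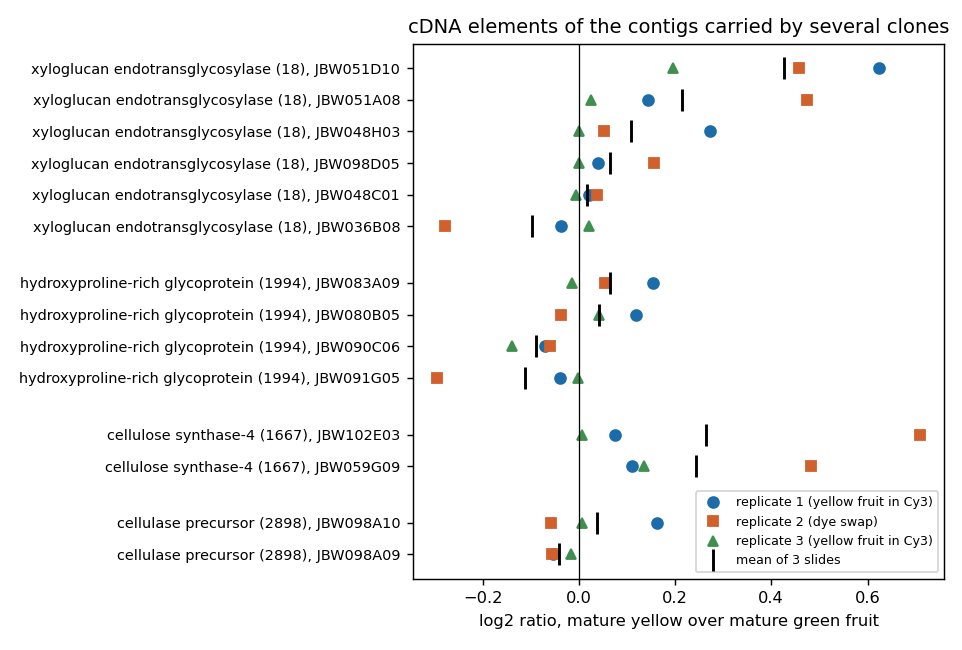
Log2 ratio of mature yellow over mature green fruit (horizontal axis) for every cDNA element of the 4 wall contigs carried by several clones, with 1 symbol per slide and a black bar for the mean of the slides. Both cellulose synthase-4 elements lie above 0 on every slide (means 0.24 and 0.26), JBW102E03 by only 0.006 on replicate 3. The means of the xyloglucan endotransglycosylase elements run from -0.10 to 0.43, and the hydroxyproline-rich glycoprotein elements lie on both sides of 0.

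The 8 glucanases and cellulose genes gave mean log2 ratios from -0.06 to 0.30, with 0 at 1.5-fold. Cellulose synthases make the glucan chains of the microfibrils at the plasma membrane. Cellulose synthase contig 1511 had signals of 14.5, 149 and 53.6 in mature yellow fruit and 13.5, 86.0 and 25.5 in mature green fruit. Its log2 ratios were 0.05, 0.81 and 0.04, positive on all slides but resting on the dye swap, with a mean of 0.30 ± 0.44 (SD, n = 3, 95% interval from -0.26 to 0.86, adjusted p = 0.727). Without replicate 2 the mean was 0.05. With a dye term, which fits replicate 2 exactly, it was 0.43 (limma's adjusted p = 0.0714). It was 0.59 with plain subtraction, 0.98 with the processed values on replicates 1 and 2 and 1.18 after scale normalization. None of these passed the test.

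Cellulose synthase-4 (contig 1667) showed the same order of slides. Its signals were 183, 492 and 78.8 in mature yellow fruit and 109, 446 and 38.6 in mature green fruit, and its log2 ratios were 0.09, 0.60 and 0.07. The mean was 0.25 ± 0.30 (SD, n = 3, 95% interval from -0.14 to 0.65, adjusted p = 0.654). It was 0.08 without replicate 2, 0.61 with the processed values and 0.88 after scale normalization. On replicates 1 to 3 the processed values were 0.09, 0.73 and 1.02, where the whole replicate 3 column had a median of 1.03. The elements of contig 1667, JBW059G09 and JBW102E03, were alike in their means, 0.24 and 0.26, and both were positive on every slide. Both were highest on replicate 2 (0.48 and 0.71). On replicate 3 JBW102E03 gave 0.006, with duplicate spots of opposite sign (-0.02 and 0.03). Cellulose synthase-3 (contig 853) went the other way on the dye swap, with 0.32, -0.52 and 0.02. The remaining catalytic subunits, contigs 465 and 913, were each above background on 1 slide and had means of -0.00 and 0.12. The glucanases and cellulases cut glucan chains. Their means were 0.02 for an endo-1,3(4)-beta-glucanase (contig 1162), -0.00 for a cellulase precursor (contig 2898) and 0.00 for contig 2970. Contig 2898 was above background on 1 slide and contig 2970 was below it throughout, so their values are not measurements of equal levels.

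Of the 7 glycosidases, a putative beta-galactosidase (contig 1029) had the lowest value of all wall contigs. Enzymes of this name release galactose from the side chains of pectin and hemicellulose. Its signal was 51.5, 71.0 and 4.82 in mature yellow fruit and 91.5, 362 and 4.39 in mature green fruit. The green fruit channel was the brighter on replicates 1 and 2, and on replicate 3 both channels were close to the background limits of 2.32 and 2.18. The log2 ratios were -0.70, -1.10 and -0.01, none of them positive. The mean was -0.60 ± 0.55 (SD, n = 3), -1.52-fold, with a 95% interval from -1.30 to 0.09 and an adjusted p of 0.580, and it did not pass the test. It was the single member with a negative value on all slides. With the authors' processed values, which held this contig on replicates 1 and 2 only, limma gave -1.43 at an adjusted p of 0.0458. That p rests on an error nearly shared across contigs and does not measure the spread of contig 1029. The size moved from -0.15 without background correction to -1.18 with plain subtraction and -1.65 after scale normalization, and without replicate 2 or 3 it was -0.35 and -0.90. None of its 6 spots passed the 2xSD test.

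The other 6 glycosidases had means from -0.10 to 0.04. Endoplasmic reticulum alpha-mannosidase (contig 762) gave 0.17, -0.49 and 0.02 (mean -0.10 ± 0.35, SD, n = 3, adjusted p = 0.910), and mannosyl-oligosaccharide 1,2-alpha-mannosidase (contig 805) gave 0.35, -0.38 and 0.14. Both were positive on replicates 1 and 3 and negative on replicate 2. An alpha glucosidase-like protein (contig 2907) gave 0.02, 0.04 and 0.01 (mean 0.02 ± 0.02, SD, n = 3, adjusted p = 0.928), but its yellow fruit channel was above background on 1 slide and its green fruit channel on none, so no fold is given. Beta-glucosidase (contig 3098) was above background on 1 slide and a putative alpha-galactosidase (contig 2334) on 2, with means of -0.01 and 0.03.

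Structural proteins of the wall are built into it and are not enzymes. The 2 contigs put in this role by their names were above background on all slides and lay near 0. Whether their proteins lie in the wall was not tested. The hydroxyproline-rich glycoprotein (contig 1994) was carried by 4 elements, and its log2 ratios were 0.04, -0.08 and -0.03 (mean -0.02 ± 0.06, SD, n = 3, adjusted p = 0.938). Its elements split, with 2 means above 0 and 2 below, from -0.11 to 0.06. The 2 below, JBW090C06 and JBW091G05, were above background in all 6 spots and negative on every slide. The 2 above, JBW080B05 and JBW083A09, were dimmer, with 5 and 2 of 6 spots above background. The glycine-rich protein (contig 720) had signals of 164, 230 and 49.3 in mature yellow fruit and 102, 311 and 28.6 in mature green fruit, and a mean log2 ratio of 0.04 with a 95% interval from -0.12 to 0.20.

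Some wall contigs had one sign on the dye-swap slide and the other sign on the remaining slides. Replicate 2 was the only slide with exchanged dyes, so dye and slide cannot be told apart. On replicates 1 and 3 one sign and on replicate 2 the other was shown by 10 of the 26 (38.5%), against 29.7% of the 7618 features measured on all slides. Of these, 9 were positive on replicates 1 and 3 and negative on replicate 2 (34.6%, against 16.5% of all features), so that the normalized Cy3 value was the higher on every slide. They included cellulose synthase-3 and both N-glycan mannosidases, and 5 of the 9 (contigs 465, 913, 977, 2970 and 3098) were above background on 1 slide or none, where the sign is not a measurement. Polygalacturonase 3193 and beta-galactosidase 1029 were not among them. The log2 ratios of the 26 contigs correlated between slides with r = 0.64, 0.93 and 0.58 (replicates 1 and 2, 1 and 3, and 2 and 3), and without contig 3193 with r = 0.34, 0.28 and 0.09. Over all features r was 0.41, 0.67 and 0.37. These correlations are across genes of the same slides and carry no test, and leaving out the most extreme contig lowers them by construction.

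Genes that supply or accompany wall synthesis outside the 26 were read from a separate list of names covering lignin enzymes, callose synthases, sucrose synthases, nucleotide sugar enzymes and reversibly glycosylated polypeptides. Of its 13 contigs 0 were called (0.129% of all features were) and 1 reached 1.5-fold (5.24% of all features did), with a median log2 ratio of -0.06. That one was a putative cinnamyl-alcohol dehydrogenase (contig 176), of the enzymes that make the alcohol precursors of lignin, at -1.78, -1.17 and -1.49 (mean -1.48 ± 0.30, SD, n = 3, adjusted p = 0.121). The value came from a single element. Clone JBW014D01, which was sequenced after the others, had a mean of -4.48. The other 2 clones each had a mean of 0.02, from slides that disagreed in sign. Clone JBW096A09 gave -0.44, 0.73 and -0.23, and clone JBW100C09 gave -0.13, 0.21 and -0.03. By the paper's methods, later sequencing was reserved for clones already meeting its tests and its 1.5-fold limit. JBW014D01 was thus given its contig number because it differed between the stages. The 1.5-fold value of contig 176 therefore rests on a clone picked for its difference. The 2 clones not picked this way showed no single direction across the slides. The other lignin enzymes had means of 0.02 for a second cinnamyl-alcohol dehydrogenase (contig 1918) and 0.02 and -0.14 for cinnamoyl-CoA reductases (contigs 2955 and 3376). The slides of contig 1918 (0.19, -0.45 and 0.31) and contig 3376 (0.07, -0.58 and 0.09) disagreed in sign. Contig 2955 was above background on 0 slides, so its value is not a measurement of equal levels. UTP--glucose-1-phosphate uridylyltransferase (contig 2655), which makes UDP-glucose for polysaccharide synthesis, gave 0.85, 0.09 and 0.47 (mean 0.47 ± 0.38, SD, n = 3, adjusted p = 0.566), positive on all slides. The 3 reversibly glycosylated polypeptides, linked to the supply of arabinose for the wall, had means from -0.27 to -0.10. The 3 callose synthases and 2 sucrose synthases lay between -0.06 and 0.05.

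**Figure D5:**
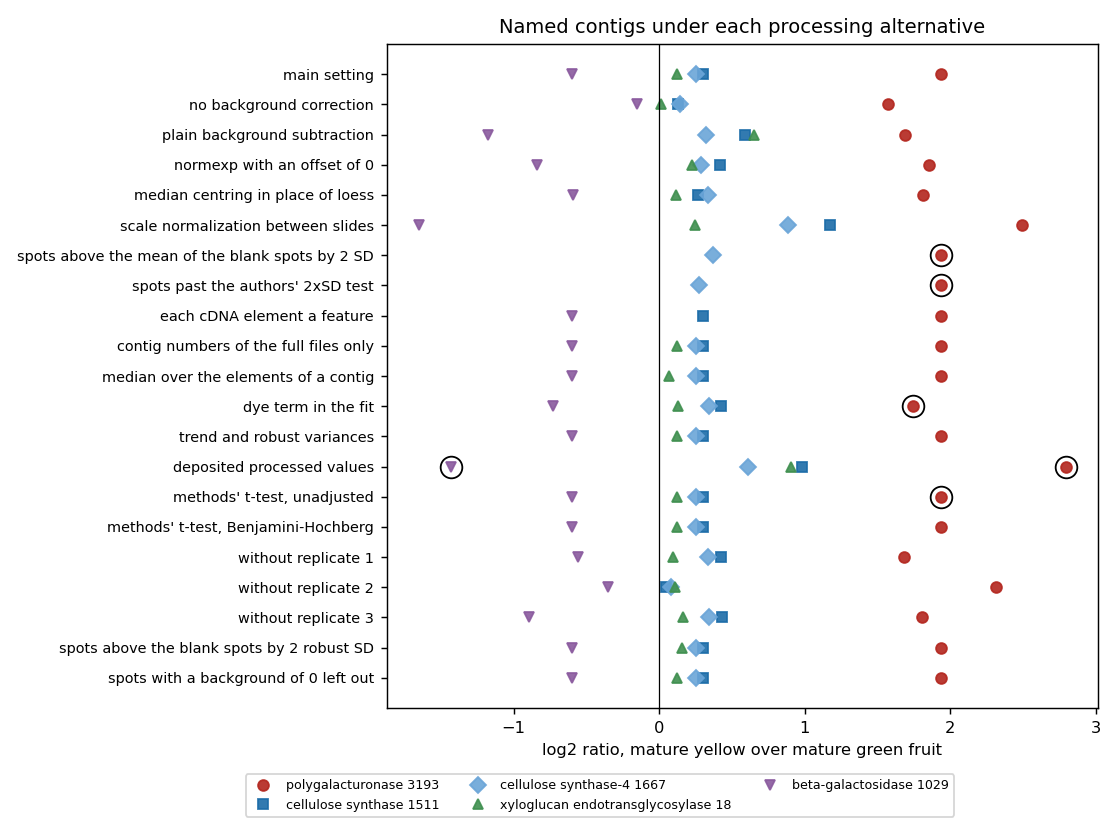
Log2 ratio of mature yellow over mature green fruit (horizontal axis) of 5 wall contigs under the main setting and each processing alternative in which they had a value, with a black ring where limma or the methods' t-test put the contig past the threshold. Polygalacturonase 3193 lies between 1.57 and 2.79 under all alternatives, beta-galactosidase 1029 between -1.65 and -0.15, and the others stay above 0.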

How the data were processed

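Labelled cDNA of both fruit stages was hybridized together on 3 cDNA slides. The authors scanned the slides, edited spots in the scanner software and deposited intensities of both channels and the local background for every spot, without correction or normalization. These are medians for replicates 1 and 2 and means for replicate 3. The authors deposited the spots that passed their 2xSD test separately, with contig numbers of clones sequenced later. The deposited spot ratio, a score of the scanner software, was not used. A table of processed scores per contig (signed folds, LOWESS normalized according to the methods), deposited by the authors, served as an alternative. Its column medians are 1.10, -1.04 and 2.04. Replicate 2 ran opposite to the scanner ratios (r = -0.86) and was turned, and 7 values between -1 and 1 were left out. Why replicate 3 is not centred near 1 stays unknown.

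Abnormal spots (318, 308 and 547 per slide) were left out. In R 4.3.3 with limma 3.58.1, intensities were corrected by normexp with an offset of 50, which pulls ratios of dim spots toward 0, and normalized by loess within slides with blank and control spots at weight 0. Dye-swap ratios were turned, and duplicate spots and then elements of a contig were averaged. Features with values on at least 2 slides were fitted by lmFit and eBayes with an intercept alone (1.65 prior degrees of freedom in the main setting). The p-values were adjusted by Benjamini-Hochberg across every feature. The number of slides limits the precision. Each slide holds 1 array, so slide and replicate are the same.

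Contigs were given full statistics if they were among the 6 highest or 6 lowest with one direction on all slides, stood in the list of changed contigs of the paper, or had the most elements in their role, so that most of them were picked by their values. Other contigs named were chosen after their values were seen. The members and lists were chosen with earlier results of these data known. The keywords matched names with RNA in 1 further contig, which was left out, and 0 clones were added to the members from the 2xSD files. In all, 18 alternatives were planned and 2 added after seeing the data. Per-sample value columns left unused number 0.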

Additional observations from a re-analysis of the deposited data

How the results depend on the processing

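The number of features called over the whole array, 10, moved with most alternatives. It was 18 without background correction, 59 with plain subtraction, 34 with an offset of 0, 6 with median centring, 92 over spots above the mean of the blank spots by 2 SD, 110 over spots past the 2xSD test, 222 with each element a feature, 227 with only the full files' contig numbers, 68 with a dye term, 138 with the deposited processed values and 18 with the robust limit for dim spots, which was chosen after seeing the data. It was 0 after scale normalization (5 at an unadjusted p under 0.05 with 1.5-fold), with the median over elements (276) and with trend and robust variances (260). The one-sample t-test gave 212 at the p limit of the paper's methods and 0 after Benjamini-Hochberg adjustment. It gave 126 at an unadjusted p under 0.05 and 1.5-fold. Leaving out 1 replicate gave 0 to 5. Rises made up 40.0% of the 10 calls, 22.2% without background correction, 16.7% with median centring and 76.8% with the processed values, where the median of all features was 0.17. It was 0.16 over spots past the 2xSD test.

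Of the wall contigs, 1 was called in each of the filters by 2 SD and by the 2xSD test, each time contig 3193. The same contig was called with a dye term and by the one-sample t-test unadjusted, and 2 were called with the processed values, contigs 3193 and 1029. At 1.5-fold there were 2 of 26 in the main setting (5.24% of all features), 1 of 26 without background correction (2.38%), 5 of 19 with plain subtraction (26.5%), 6 of 26 after scale normalization (22.8%), 1 of 5 over spots above blank by 2 SD (16.8%), 1 of 3 over 2xSD spots (19.1%), 5 of 14 with the processed values (27.0%) and 1 to 2 of 26 without 1 replicate (5.42% to 7.03%). Their median, 0.02, was 0.24 with plain subtraction, -0.017 after scale normalization, 0.28 over the 3 contigs with 2xSD spots, 0.075 with the processed values and -0.01 to 0.04 without 1 replicate. The cause was not tested.

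For the 11 named contigs 191 comparisons with the main value were made over 20 alternatives. In 171 the direction and the side of the threshold were the main ones, in 6 a contig passed the threshold, and 14 changed sign, all in contigs within 0.10 of 0. Contig 530 was -0.014 without background correction and with a dye term, -0.25 after scale normalization and -0.10 to 0.17 without 1 replicate. Contig 762 was 0.24 with plain subtraction and -0.23 to 0.10 without 1 replicate. Contig 1994 was 0.053 with plain subtraction, 0.034 with an offset of 0, 0.033 with the processed values, 0.014 with median centring and -0.056 to 0.0066 without 1 replicate. Contig 2907 was -0.010 without background correction, contig 2767 -0.0058 with an offset of 0, and contig 977 -0.00066 to 0.064 without 1 replicate. Contigs of several elements have no value with each element a feature, and contigs without spots past a filter have none there. Every log2 ratio is taken within a slide, so the fits are already paired by slide, and a further block on the replicate number could not be fitted.

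Both the small number of slides and dim spots limit these results. The offset exceeds the median signal on replicates 1 and 3, 12 of the 26 wall contigs were not above background on all slides, and 22 rest on 1 element. A small difference in these contigs was not detectable here.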
